A study of Mus musculus with 8 samples.

Results

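Imprinted genes are genes of which mainly the maternal or mainly the paternal copy is active. The choice is set by DNA methylation marks that are laid down in the egg or the sperm at control regions and are kept in the body cells of the offspring. *Dnmt3l* encodes a cofactor of the DNA methyltransferases that lay down these marks in germ cells, and many imprinted genes encode growth factors, their inhibitors or long noncoding RNAs. Here 44 known mouse imprinted genes were followed in mesenchymal stem/stromal cells (MSCs), adherent bone marrow cells with the capacity to give rise to bone, cartilage and fat. They were chosen by symbol, as genes known to be imprinted in the mouse, and 44 of the 44 symbols were found among the 24346 genes measured.

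The data comprise 8 RNA libraries of C57BL/6 mouse MSCs at passage 4, with 2 libraries in each of 4 groups: undifferentiated wild-type (WT), undifferentiated *Dnmt3l* knock-out (KO), differentiating WT and differentiating *Dnmt3l* KO MSCs. The differentiating cells had spent 3 days in osteogenic induction medium, which contains dexamethasone, β-glycerophosphate and ascorbic acid 2-phosphate. By the paper's methods this medium also held less serum than the culture medium and was added once cells were confluent. Changes with induction below cannot be told apart from effects of serum, density or time. Adult female KO mice and *Dnmt3l*+/+ littermates came from crosses of parents heterozygous for the tmEnls allele, so the parents of both genotypes carried a working *Dnmt3l* copy. Cells of several mice were mixed by genotype and depleted of CD11b+ and CD45+ cells, and no source used here tells whether separate mixes lie behind the libraries of a group. The tests below therefore measure the spread between these libraries, which may be technical. Values are RPKM, reads per kilobase of transcript and per unit of mapped reads, and each is a sum over both parental copies of a gene, so no value here tells which copy was active.

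Depth, estimated from how low values step up, was 48.3 to 67.1 M reads per library. *Dnmt3l* itself was at 0 in the 4 KO libraries and low, at 0.830 to 1.56 RPKM, in the 4 WT libraries. The paper maps the WT reads to the later exons of the gene only. It could not detect the canonical DNMT3L protein in cultured MSCs. The 11 MSC markers of a chosen list were above 0 in all groups. Their summed level was 1582 to 1611 RPKM in WT and 1733 to 1740 RPKM in KO MSCs before induction. It stood at 3032 to 3107 RPKM and 3857 to 3911 RPKM after induction, in the same order. Of these 11 markers 5 were higher and 3 lower in KO before induction, and 5 were higher and 5 lower after it. These are 72.7% and 90.9% of them, against 32.2% and 40.7% of all genes. Of 10 leukocyte markers 9 were in the table, and their summed level before induction was 17.7 to 18.8 RPKM in WT and 8.92 to 9.75 RPKM in KO MSCs, and 30.2 to 34.5 RPKM and 13.7 to 14.8 RPKM after it. Before induction the difference lay in *Lyz2*, a lysozyme of myeloid cells, with a mean of 13.1 RPKM in WT libraries and of 3.31 RPKM in their KO counterparts. Of the 7 leukocyte markers tested 2 were higher in KO (*Cd14* and *Csf1r*) and 2 lower before induction, and 1 was higher and 5 lower after it. A summed level of 6 proliferation genes was 189 to 191 RPKM and 247 to 252 RPKM before induction, and 112 to 121 RPKM and 59.9 to 75.0 RPKM after it, in WT and KO MSCs. Of 8 osteoblast markers 1 was higher and 3 lower in KO before induction, and none was higher and 7 lower after it. Their sums were 1225 to 1357 RPKM in WT libraries and 1513 to 1587 RPKM in their KO counterparts before induction. After it they were 2097 to 2321 RPKM and 1170 to 1239 RPKM, in the same order. The sum of 3 chondrocyte markers was 121 to 125 RPKM in WT and 135.7 to 136.3 RPKM in KO before induction. It was 45.7 to 51.1 RPKM and 12.1 to 13.5 RPKM after induction, in the same order. The sum of 5 adipocyte markers rose from 47.3 to 49.3 RPKM up to 376 to 380 RPKM in WT. In KO it rose from 53.6 to 56.0 RPKM up to 388 to 414 RPKM. The part of these marker differences in the results below was not tested. In bulk RNA, fewer cells of a type and less RNA per cell cannot be told apart.

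Of the 44 imprinted genes 39 reached a mean of 0.1 RPKM over the 8 libraries and were tested. The level varied widely among them: 4 genes had a mean of at least 100 RPKM, 12 lay between 10 and 100, 15 between 1 and 10, and 8 between 0.1 and 1. *Gnas*, which encodes the stimulatory G protein alpha subunit, was the highest at 504 to 614 RPKM. The 5 genes under the minimum were *Phlda2*, *Kcnq1*, *Usp29*, *Magel2* and *Rasgrf1*. *Rasgrf1* was listed at 0 in all 8 libraries, and *Magel2* was above 0 in a single KO library. *Phlda2*, which restrains placental growth, stayed under 0.0809 RPKM, the value that 3 reads would give in the deepest library; this floor covers counting error only. These 5 genes were not tested.

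A gene is called changed below where the adjusted p of a linear model across all genes (limma, Benjamini-Hochberg adjustment over 15342 genes) was under 0.05, and differences are of log2(RPKM + 0.1), a scale on which low genes seem to change less than they do. A fold limit, where named, is an absolute log2 change above 1. In undifferentiated MSCs 15 of the 39 tested imprinted genes differed between KO and WT, 38.5% of them against 32.2% of all genes. Of these 5 were higher in KO (*Airn*, *Dio3*, *Kcnq1ot1*, *Mcts2* and *Peg10*) and 10 were lower (*Asb4*, *Grb10*, *H19*, *Igf2r*, *Impact*, *Mest*, *Nnat*, *Sgce*, *Slc22a18* and *Ube3a*), shares to be set beside 14.7% and 17.5% of all genes. *Mest* was the only imprinted gene past the fold limit, which 1.70% of all genes passed. The median log2 change over the 39 genes was -0.13. The count of 15 fell to 8 and 7 without replicate 1 or 2 of undifferentiated KO MSCs and to 6 without replicate 2 of undifferentiated WT MSCs. The calls of *Asb4*, *Igf2r*, *Mest*, *Nnat*, *Sgce* and *Slc22a18* held whichever library was left out. Quantile normalization ended the calls of *Dio3*, *Grb10* and *Ube3a* (adjusted p = 0.053, 0.064 and 0.12), and a fit of only the undifferentiated libraries those of *Kcnq1ot1* and *Ube3a* (0.064 and 0.051).

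In differentiating MSCs 16 of the 39 imprinted genes differed between KO and WT, 41.0% against 40.7% of all genes. There were 8 higher (*Cdkn1c*, *Dio3*, *H19*, *Meg3*, *Peg3*, *Sgce*, *Slc22a18* and *Zrsr1*) and 8 lower (*Asb4*, *Mest*, *Mirg*, *Nnat*, *Peg10*, *Peg12*, *Rian* and *Ube3a*), beside 17.8% and 22.9% of all genes. *Mest* was again the only member past the fold limit, which 3.30% of all genes passed. The median log2 change of the members was -0.01. The calls of 11 of the 16 genes held whichever library was left out, and those of *Cdkn1c*, *H19*, *Meg3*, *Mirg* and *Peg3* did not. A fit of only the differentiating libraries ended the calls of *H19* and *Mirg* (adjusted p = 0.056 for both). In both states the share of these 39 genes that differed was thus near that of all genes. Among 32 other genes with reported imprinting, described below, the shares were 53.1% and 34.4%. In total 22 imprinted genes differed by genotype in at least 1 state (56.4% against 55.8% of all genes) and 17 in neither.

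**Figure D1:**
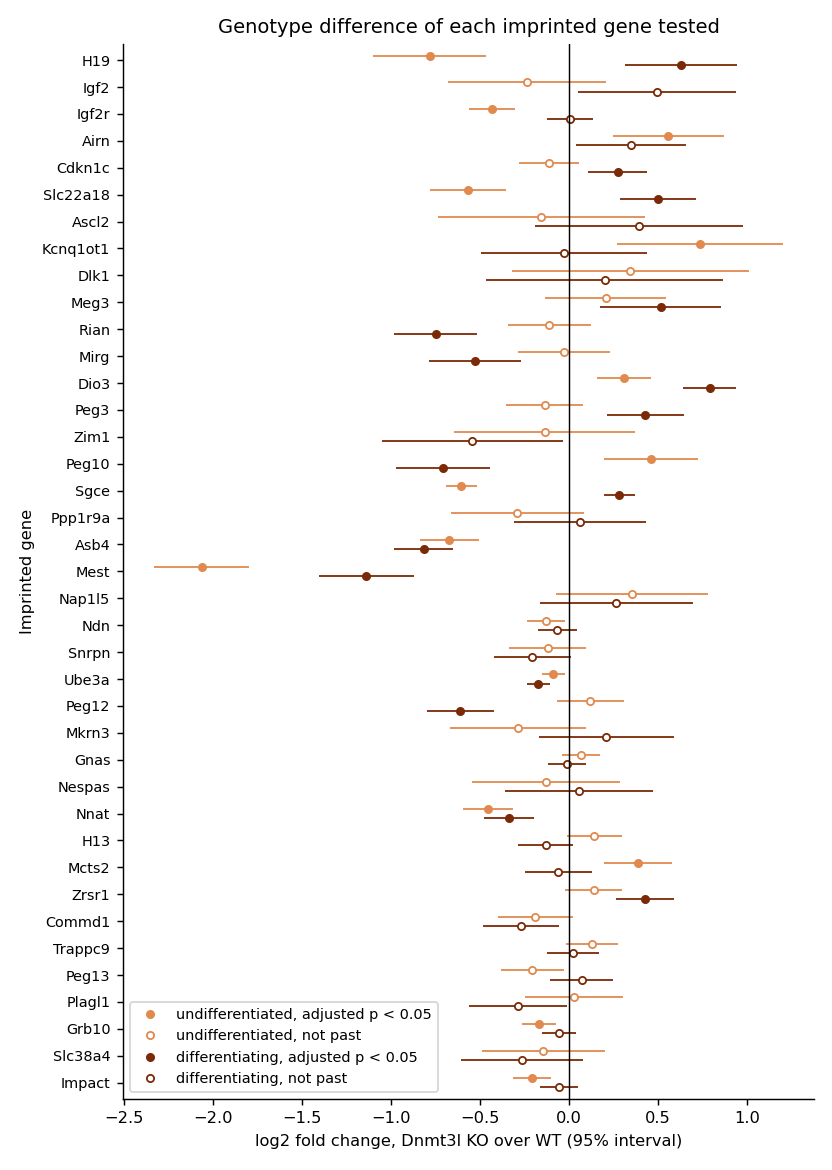
Difference between *Dnmt3l* KO and WT MSCs for each of the 39 tested imprinted genes, in undifferentiated cells (light) and differentiating cells (dark); the x axis is the log2 fold change, bars are 95% intervals of limma from 2 libraries per group, and filled points passed adjusted p of 0.05. *Mest* lies farthest from 0 in both states, and *H19*, *Slc22a18*, *Sgce* and *Peg10* have filled points on opposite sides of 0.

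By the expressed parental copy, as textbook knowledge gives it, 17 of the tested genes are maternally and 22 paternally expressed. In undifferentiated MSCs the 6 maternally expressed genes that changed were all lower in KO. The 9 paternally expressed genes divided into 5 higher and 4 lower. Among all genes 14.7% were higher and 17.5% lower. Within the 6, the calls of *Asb4*, *Igf2r* and *Slc22a18* held whichever library was left out. Those of *Grb10*, *H19* and *Ube3a* did not. In differentiating MSCs both classes divided evenly, with 4 higher and 4 lower in each. The assignment of copies was written after values had been seen, the copy active in MSCs was not measured, and the numbers are a description.

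*Mest*, also called Peg1, encodes a paternally expressed hydrolase of mesoderm-derived tissue and lies on chromosome 6 (chr6:30723547-30748465, mm10). Its values in undifferentiated MSCs were 5.85 and 6.66 RPKM in WT and 1.48 and 1.36 RPKM in KO. In differentiating MSCs they were 11.0 and 10.7 RPKM in WT and 5.37 and 4.42 RPKM in KO. The KO libraries were below both WT libraries in each state, and the differentiating KO cells were below the undifferentiated WT cells as well. Undifferentiated KO MSCs thus held a mean of 1.42 ± 0.0897 RPKM (SD, n = 2) against 6.26 ± 0.576, which was 4.41-fold lower (log2 change -2.06 ± 0.11 SE, adjusted p = 0.00031). After induction the mean was 2.22-fold lower (log2 change -1.14 ± 0.11, adjusted p = 0.0013). Induction raised *Mest* in WT (log2 change 0.79, adjusted p = 0.0011) and in KO (1.71, adjusted p = 2.4e-05), and the rise was larger in KO by 0.92 ± 0.15 (adjusted p = 0.0063). *Copg2*, a coat protein gene that neighbours *Mest*, stood at 20.3 and 20.2 RPKM in undifferentiated WT and 13.4 and 14.0 RPKM in KO MSCs (log2 change -0.56, adjusted p = 0.00035), and was not called in differentiating MSCs (-0.09, adjusted p = 0.082).

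Since *Mest* differed most, the sequences around its annotated starts are shown, with those of *Igf2r* and *Airn*, an antisense pair described below. RefSeq lists 3 starts of *Mest* in its promoter table of build GRCm38.p6, of which 2 differ by only 3 bases, and the windows run from 250 bases before to 50 bases after a start. Capitals mark TGCCGC and its reverse complement GCGGCA, the core of the site that the imprint-keeping zinc finger protein ZFP57 binds when methylated, searched on both strands. The upstream *Mest* window, chr6:30733256-30733555 on the plus strand, has 8 CpG dinucleotides and no match.
Mest upstream start: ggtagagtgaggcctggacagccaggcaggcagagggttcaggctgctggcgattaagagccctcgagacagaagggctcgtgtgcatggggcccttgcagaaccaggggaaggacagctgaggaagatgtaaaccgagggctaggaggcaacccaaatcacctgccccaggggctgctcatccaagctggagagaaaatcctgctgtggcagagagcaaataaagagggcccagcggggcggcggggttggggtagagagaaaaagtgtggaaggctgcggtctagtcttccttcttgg
The window of the downstream start, chr6:30737800-30738099 on the plus strand, has 17 CpG and 2 matches.
Mest downstream start: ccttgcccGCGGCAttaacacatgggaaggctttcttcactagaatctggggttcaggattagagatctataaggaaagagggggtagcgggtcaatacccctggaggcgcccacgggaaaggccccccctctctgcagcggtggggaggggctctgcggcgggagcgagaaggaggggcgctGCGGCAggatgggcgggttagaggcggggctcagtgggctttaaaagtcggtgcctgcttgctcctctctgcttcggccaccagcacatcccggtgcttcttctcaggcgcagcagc
The *Igf2r* window, chr17:12769657-12769956 on the minus strand, has 34 CpG and no match.
Igf2r: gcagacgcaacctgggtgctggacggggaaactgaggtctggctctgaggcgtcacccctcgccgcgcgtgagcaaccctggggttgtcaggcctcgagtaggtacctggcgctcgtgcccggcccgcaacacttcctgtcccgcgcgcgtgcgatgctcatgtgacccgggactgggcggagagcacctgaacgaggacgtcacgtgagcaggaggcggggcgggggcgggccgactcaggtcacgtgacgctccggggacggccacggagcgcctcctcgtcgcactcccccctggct
The *Airn* window, chr17:12741061-12741360 on the plus strand, has 3 CpG and no match.
Airn: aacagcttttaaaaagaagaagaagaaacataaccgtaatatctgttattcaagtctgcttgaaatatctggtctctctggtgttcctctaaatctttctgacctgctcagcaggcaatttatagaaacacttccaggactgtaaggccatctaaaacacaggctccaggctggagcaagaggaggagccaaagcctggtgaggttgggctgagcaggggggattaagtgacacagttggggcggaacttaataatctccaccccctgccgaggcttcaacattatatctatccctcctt
RefSeq promoters were matched for 35 of the 44 imprinted genes, 53 windows in all. The letters occur in 12 of these 53 windows (22.6%) and in 3813 of 32851 windows of all genes (11.6%). The 12 include 2 nearly identical *Mest* windows, whose starts differ by 3 bases. The letters contain a CpG, and the median number of CpG was 13 in the imprinted genes and 7 in all genes. The shares are therefore not matched for CpG, and no enrichment was tested. A match is a description of the letters, not a binding site, and methylation was not measured in these libraries.

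*H19* and *Igf2* share enhancers and lie next to each other on chromosome 7 (chr7:142575529-142578143 and chr7:142650766-142666816). *H19* is a maternally expressed long noncoding RNA, and *Igf2* a paternally expressed growth factor. *H19* stood at 4.43 and 4.80 RPKM in undifferentiated WT MSCs and 2.42 and 2.88 RPKM in their KO counterparts, a log2 change of -0.78 ± 0.13 (adjusted p = 0.0077). After induction it was at 41.6 and 36.0 RPKM in WT and 54.4 and 65.8 RPKM in KO MSCs, a log2 change of 0.63 ± 0.13 (adjusted p = 0.012). The KO libraries were thus both below the WT libraries before induction and both above them after it. The first call was lost without replicate 2 of undifferentiated WT MSCs (adjusted p = 0.053), and the second without replicate 2 of differentiating KO (0.057) or WT (0.075) MSCs. Induction raised the mean of *H19* 8.40-fold in WT and 22.7-fold in KO MSCs, and the rises differed by 1.41 ± 0.18 on the log2 scale (adjusted p = 0.0028). That difference of the rises was called whichever library was left out.

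*Igf2* followed the same course over induction at a lower level. It was at 0.571 and 0.681 RPKM in undifferentiated WT MSCs and 0.459 and 0.577 RPKM in their KO counterparts, where the groups overlapped. In differentiating cells it was at 6.71 and 5.79 RPKM in WT and at 7.54 and 10.3 RPKM in KO. The mean rose 9.99-fold in WT (adjusted p = 3e-05) and 17.2-fold in KO MSCs (adjusted p = 7.2e-06). The genotype differences did not pass, with 95% intervals of -0.68 to 0.21 before and 0.05 to 0.94 after induction on the log2 scale (adjusted p = 0.36 and 0.076).

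*Igf2r*, the receptor that takes up IGF2 for degradation, and *Airn*, the noncoding RNA that silences it on the paternal copy, overlap on opposite strands of chromosome 17 over 28354 nt. Reads were assigned by strand in the study's processing. *Igf2r* was at 55.2 and 55.5 RPKM in undifferentiated WT MSCs and at 40.8 and 41.1 RPKM in their KO counterparts, a mean 1.35-fold lower (log2 change -0.43 ± 0.05, adjusted p = 0.003). After induction WT libraries held 37.8 and 35.1 RPKM and KO libraries 35.0 and 38.1 RPKM, which overlapped (log2 change 0.00, 95% interval -0.13 to 0.13). The genotype difference therefore changed between the states, by 0.44 ± 0.07 (adjusted p = 0.0067). *Airn* was at 2.80 and 2.35 RPKM in undifferentiated WT MSCs and 3.73 and 3.92 RPKM in their KO counterparts, higher in both KO libraries (log2 change 0.56 ± 0.13, adjusted p = 0.021). It then stood at 3.69 and 4.17 RPKM in WT and 4.55 and 5.55 RPKM in KO cells after induction (log2 change 0.35, adjusted p = 0.073). The call of *Airn* in undifferentiated MSCs was lost without replicate 2 of WT (adjusted p = 0.11) or without replicate 1 or 2 of KO (0.08 and 0.11). Induction lowered *Igf2r* (-0.60 in WT, adjusted p = 0.00016; -0.16 in KO, adjusted p = 0.03) and raised *Airn* (0.59, adjusted p = 0.0071; 0.39, adjusted p = 0.033).

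**Figure D2:**
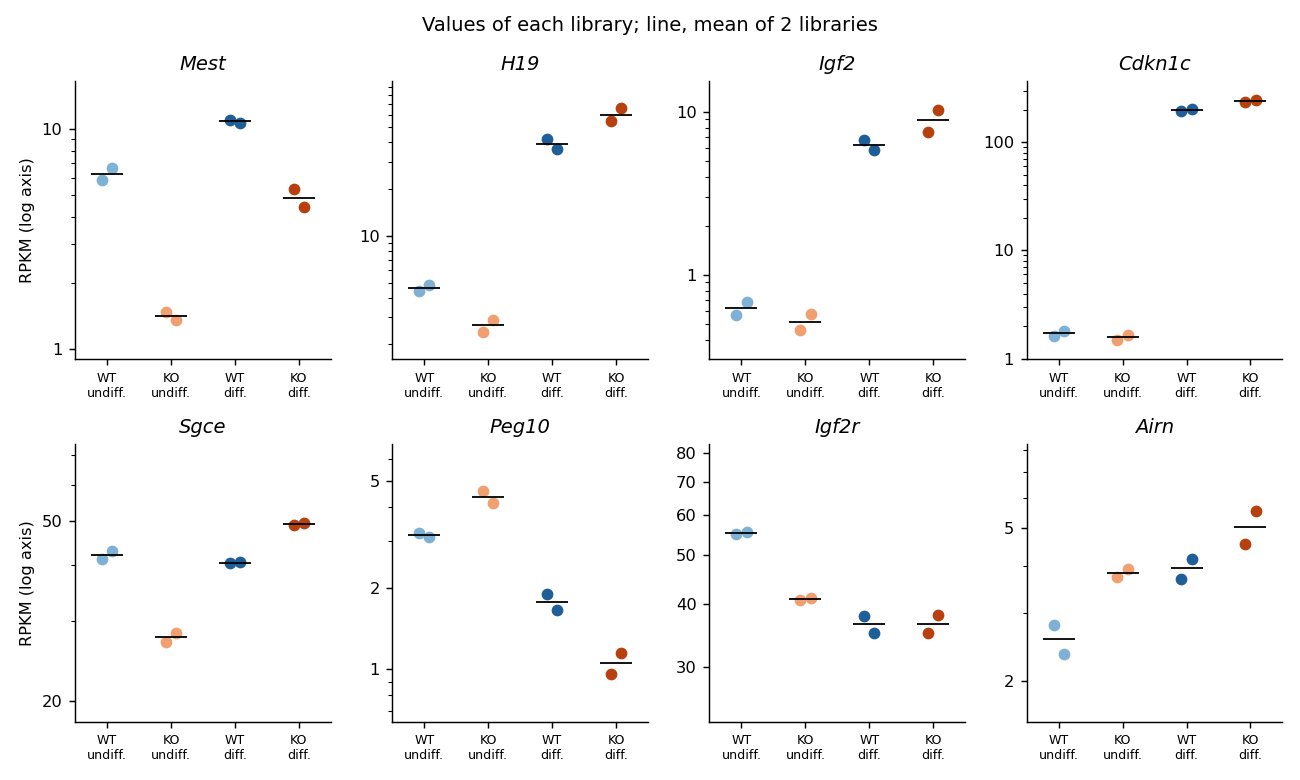
RPKM (log axis) of 8 imprinted genes in each of the 8 libraries, grouped as undifferentiated and differentiating WT and *Dnmt3l* KO MSCs; points are libraries and lines are means of 2 libraries. *Mest* is lower in KO in both states, and *H19* and *Sgce* are lower in KO before and higher after induction.

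*Cdkn1c*, which encodes the cyclin-dependent kinase inhibitor p57, showed the largest change of the imprinted genes under induction. It rose from 1.63 and 1.79 RPKM to 195 and 205 RPKM in WT MSCs and from 1.49 and 1.66 RPKM to 237 and 246 RPKM in KO MSCs. All 4 differentiating libraries were above all 4 undifferentiated libraries, a 117-fold rise of the mean in WT (log2 change 6.79 ± 0.07, adjusted p = 1.6e-07) and a 154-fold rise in KO (7.18 ± 0.07, adjusted p = 5.6e-08). Differentiating KO libraries were both above the WT libraries, with a mean 1.21-fold higher (log2 change 0.27, adjusted p = 0.022). That call was lost when any of the 4 differentiating libraries was left out (adjusted p 0.051 to 0.11). The interaction (0.39, adjusted p = 0.023) was lost without replicate 2 of either WT group or of differentiating KO cells, and without replicate 1 of undifferentiated KO or differentiating WT cells (adjusted p 0.055 to 0.076).

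Other genes of the same domain on chromosome 7, which the noncoding RNA *Kcnq1ot1* controls on the paternal copy, rose as well. *Slc22a18*, a membrane transporter, was at 1.55 and 1.69 RPKM in undifferentiated WT MSCs and 1.15 and 0.976 RPKM in their KO counterparts, lower in KO (log2 change -0.57 ± 0.09, adjusted p = 0.006). After induction the order turned, with 6.27 and 6.21 RPKM in WT and 9.17 and 8.58 RPKM in KO (0.50 ± 0.09, adjusted p = 0.0071). The rise was 3.85-fold in WT and 8.36-fold in KO, and the difference of the rises was 1.07 ± 0.12 on the log2 scale (adjusted p = 0.002). Both genotype calls and the interaction held whichever library was left out.

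*Kcnq1ot1* stood at 1.43 and 1.03 RPKM in WT and 1.99 and 2.2 RPKM in KO MSCs before induction, and 2.90 and 2.97 RPKM in WT and 2.45 and 3.36 RPKM in KO MSCs after it. It was higher in KO before induction (0.73 ± 0.19, adjusted p = 0.032) and rose with induction in WT (1.20, adjusted p = 0.002), while the change in KO was 0.44 (adjusted p = 0.08). The call before induction was lost without either KO library (0.097 and 0.15), without replicate 2 of undifferentiated WT (0.14) and without either differentiating WT library (0.061 and 0.063). *Ascl2*, a transcription factor of the trophoblast lineage, held 0.0147 to 0.0433 RPKM in the undifferentiated libraries, near or below the 0.0319 to 0.0443 RPKM that 3 reads would give. It held 0.211 and 0.124 RPKM in differentiating WT and 0.282 and 0.215 RPKM in differentiating KO MSCs. It passed the minimum only through the differentiating libraries, so no fold is given.

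The Dlk1-Dio3 domain of chromosome 12 holds maternally expressed noncoding RNAs (*Meg3*, *Rian* and *Mirg*) between protein genes that are expressed from the paternal copy (*Dlk1*, a Notch ligand homolog, and *Dio3*, the deiodinase that inactivates thyroid hormone). *Dlk1* was barely present, at 0.0696 to 0.203 RPKM in all libraries, and no comparison called it. *Rian*, which hosts small nucleolar RNAs and microRNAs, had the highest level of the domain in 3 of the 4 groups, while *Dio3* was higher in differentiating KO MSCs. *Rian* was at 144 and 145 RPKM in undifferentiated WT MSCs and 136 and 132 RPKM in their KO counterparts, and at 104 and 105 RPKM and 69.4 and 55.8 RPKM after induction. The differentiating KO libraries were the lowest of all (log2 change to WT -0.75 ± 0.10, adjusted p = 0.0027), and before induction the difference did not pass (-0.11, adjusted p = 0.41). The genotype differences themselves differed by -0.64 ± 0.13 (adjusted p = 0.013), a call lost without replicate 1 of undifferentiated KO (0.052) or replicate 2 of differentiating WT MSCs (0.051).

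*Mirg*, the host RNA of a microRNA cluster further along the domain, showed the same order at a lower level. Its values were 6.42 and 7.08 RPKM in WT and 6.24 and 7.01 RPKM in KO MSCs before induction, and 4.50 and 4.93 RPKM in WT and 3.51 and 2.96 RPKM in KO MSCs after it. It was lower in KO after induction (-0.53 ± 0.11, adjusted p = 0.011), except without replicate 2 of differentiating WT cells (0.07). Its interaction of -0.50 (adjusted p = 0.041) was lost in 7 of the 8 fits that left out a library, all but that without replicate 1 of differentiating KO cells (adjusted p 0.059 to 0.13). Of 14 microRNA hairpins inside *Mirg*, all were in the table and 6 were at 0 in all libraries.

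*Meg3* and *Dio3* went the other way. *Meg3* was at 40.4 and 31.5 RPKM in WT and 37.8 and 44.8 RPKM in KO MSCs before induction, and 35.7 and 31.5 RPKM in WT and 47.2 and 48.7 RPKM in KO MSCs after it. Between the genotypes, only the libraries after induction did not overlap (0.51 ± 0.14, adjusted p = 0.029), a call lost when any of their 4 libraries was left out (0.059 to 0.15). *Dio3* was at 45.9 and 45.3 RPKM in undifferentiated WT MSCs and 54.9 and 58.1 RPKM in their KO counterparts, and at 65.4 and 64.6 RPKM and 106 and 120 RPKM after induction. It was higher in KO in both states, by 0.31 ± 0.06 (adjusted p = 0.014) and 0.79 ± 0.06 (adjusted p = 0.00086), and the differences differed by 0.48 (adjusted p = 0.0077). The smaller call was lost without replicate 2 of undifferentiated KO (0.083) or either undifferentiated WT library (0.058 and 0.076). *Dio3os*, the noncoding RNA antisense to *Dio3*, was at 9.35 and 9.77 RPKM in differentiating WT and 17.5 and 18.6 RPKM in differentiating KO MSCs (0.91, adjusted p = 0.0013). After induction *Rian* and *Mirg* were thus lower in KO, while *Meg3*, *Dio3* and *Dio3os* were higher.

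**Figure D3:**
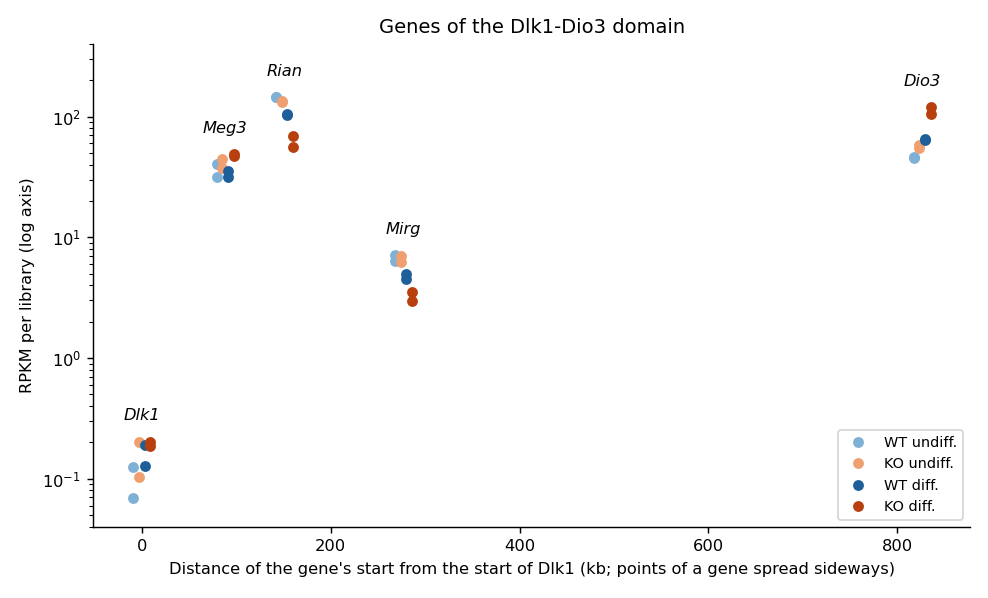
RPKM (log axis) of the 5 genes of the Dlk1-Dio3 domain in each of the 8 libraries, placed by the distance of the gene start from the start of *Dlk1* in kb, with points spread sideways for clarity. In differentiating KO MSCs *Rian* and *Mirg* are lowest and *Dio3* is highest of the 4 groups, while *Dlk1* stays under 0.203 RPKM or at it.

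The *Peg10* cluster of chromosome 6 has *Peg10*, a retrotransposon-derived gene, and *Sgce*, the epsilon sarcoglycan gene, head to head (chr6:4747306-4760517 and chr6:4674350-4747207), and they differed by genotype in opposite directions. *Sgce* was at 41.3 and 42.8 RPKM in undifferentiated WT MSCs and 26.9 and 28.3 RPKM in their KO counterparts, a log2 change of -0.60 ± 0.04 (adjusted p = 0.00035). After induction it was at 40.3 and 40.5 RPKM in WT and 48.8 and 49.4 RPKM in KO, higher in both KO libraries (0.28 ± 0.04, adjusted p = 0.0025). It rose with induction in KO (0.83, adjusted p = 4.7e-06) and its change in WT was -0.06 (adjusted p = 0.2), and the interaction of 0.89 ± 0.05 (adjusted p = 0.00041) held whichever library was left out.

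*Peg10* was at 3.20 and 3.09 RPKM in undifferentiated WT MSCs and 4.57 and 4.15 RPKM in their KO counterparts, higher in KO (0.46 ± 0.11, adjusted p = 0.023). That call was lost when any of these 4 libraries was left out (0.066 to 0.12). After induction it was at 1.90 and 1.66 RPKM in WT and 0.957 and 1.15 RPKM in KO, lower in KO (-0.71 ± 0.11, adjusted p = 0.0046). The fall with induction was 1.77-fold in WT and 4.15-fold in KO, and the difference of the falls was -1.17 ± 0.15 on the log2 scale (adjusted p = 0.0029). *Asb4*, a maternally expressed subunit of ubiquitin ligases, was lower in KO in both states. It was at 8.25 and 8.93 RPKM against 5.27 and 5.42 RPKM in undifferentiated WT and KO MSCs (-0.67 ± 0.07, adjusted p = 0.0017), and at 5.41 and 5.79 RPKM against 3.28 and 2.99 RPKM after induction (-0.82 ± 0.07, adjusted p = 0.00095). The difference between those differences did not pass (-0.14, 95% interval -0.38 to 0.09, adjusted p = 0.28). *Ppp1r9a*, an actin-binding protein gene of the cluster, was at 0.133 to 0.248 RPKM and did not differ by genotype past the threshold.

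*Peg3*, a zinc finger gene expressed from the paternal copy, was at 0.890 and 0.782 RPKM in WT and 0.733 and 0.768 RPKM in KO MSCs before induction, and 1.33 and 1.24 RPKM in WT and 1.73 and 1.80 RPKM in KO MSCs after it. It was higher in KO after induction (0.43 ± 0.09, adjusted p = 0.012), except without replicate 2 of differentiating KO (0.055) or WT (0.072) cells. The larger rise in KO (0.57 ± 0.12, adjusted p = 0.016) was lost without replicate 1 of undifferentiated KO (0.054) or replicate 2 of differentiating WT cells (0.056). Its neighbour *Zim1* was at 0.0782 to 0.277 RPKM, and *Usp29* did not exceed 0.00819 RPKM.

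The *Snrpn* domain of chromosome 7, the mouse counterpart of the Prader-Willi and Angelman region, was measured through 5 tested genes. *Peg12* was at 5.14 and 5.25 RPKM in undifferentiated WT MSCs and 5.78 and 5.53 RPKM in their KO counterparts, and at 2.81 and 2.77 RPKM and 1.94 and 1.66 RPKM after induction. It was lower in KO after induction (-0.61 ± 0.08, adjusted p = 0.0026), while the difference before it was 0.12 (adjusted p = 0.28), and the interaction was -0.73 ± 0.11 (adjusted p = 0.0042). *Ube3a*, a ubiquitin ligase gene, was at 38.8 and 39.5 RPKM in undifferentiated WT MSCs and 37.1 and 36.5 RPKM in their KO counterparts, and at 33.5 RPKM in both differentiating WT libraries and 29.8 and 29.6 RPKM in differentiating KO. Its differences were small in both states (-0.09 ± 0.03, adjusted p = 0.046; -0.17 ± 0.03, adjusted p = 0.0045), and the first was lost without any of the 4 undifferentiated libraries (0.097 to 0.19) and without either differentiating WT library (0.079 and 0.076). *Snrpn*, a splicing factor gene, was at 9.96 and 11.0 RPKM in undifferentiated WT MSCs and 9.69 and 9.52 RPKM in their KO counterparts, and at 8.02 and 8.10 RPKM and 7.61 and 6.38 RPKM after induction. It fell with induction in WT (-0.37, adjusted p = 0.011) and KO (-0.46, adjusted p = 0.0037), and neither genotype difference passed. *Ndn*, a paternally expressed MAGE family gene, was at 45.0 to 51.5 RPKM in all libraries and no comparison called it, nor did any call *Mkrn3*, at 0.258 to 0.439 RPKM.

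Several genes of single loci differed by genotype in undifferentiated MSCs. *Nnat*, a proteolipid gene inside an intron of another gene, was at 4.81 and 4.52 RPKM in WT and 3.48 and 3.26 RPKM in KO (-0.46 ± 0.06, adjusted p = 0.0035). It was lower in KO after induction too, at 2.54 RPKM in both WT libraries against 2.03 and 1.95 RPKM (-0.34 ± 0.06, adjusted p = 0.0069). *Grb10*, an adaptor that dampens insulin and IGF receptor signals, was at 172 and 177 RPKM in WT and 156 and 154 RPKM in KO (-0.17, adjusted p = 0.021), and at 192 and 180 RPKM and 179 RPKM in both KO libraries after induction (-0.06, adjusted p = 0.28). *Impact*, a regulator of the stress kinase GCN2, was at 68.3 and 70.7 RPKM in WT and 60.6 and 59.6 RPKM in KO (-0.21, adjusted p = 0.016). After induction *Impact* was at 68.6 and 68.1 RPKM in WT and 68.3 and 63.1 RPKM in KO, which overlapped. The call of *Grb10* was lost without any of the 4 undifferentiated libraries (0.06 to 0.11), and that of *Impact* without either KO library (0.07 and 0.089) or replicate 2 of WT (0.09). *Plagl1*, a zinc finger transcription factor gene, was at 1.81 and 1.77 RPKM in WT and 1.86 and 1.78 RPKM in KO MSCs before induction, and 2.82 and 2.51 RPKM in WT and 1.94 and 2.41 RPKM in KO MSCs after it. It rose with induction in WT (0.55, adjusted p = 0.006), and its change in KO was 0.24 (adjusted p = 0.11). The difference between them did not pass (-0.31, adjusted p = 0.17).

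The remaining pairs are imprinted genes that lie inside another gene. *Mcts2*, a retrogene inside *H13* on the same strand, was at 10.0 and 9.82 RPKM in undifferentiated WT MSCs and 12.9 and 13.1 RPKM in their KO counterparts, and at 10.5 and 8.94 RPKM and 9.60 and 8.94 RPKM after induction. It was higher in KO only before induction (0.39 ± 0.08, adjusted p = 0.014), with an interaction of -0.45 (adjusted p = 0.022). The first call was lost without any of the 4 undifferentiated libraries (0.057 to 0.078), and the interaction without any of these or replicate 2 of differentiating KO cells (0.058 to 0.072). *H13*, which encodes the signal peptide peptidase, was at 62.3 and 65.9 RPKM in WT and 69.6 and 71.9 RPKM in KO, and at 43.3 and 44.6 RPKM and 42.7 and 37.7 RPKM after induction (genotype differences 0.14 and -0.13, adjusted p = 0.14 and 0.15). Since both genes are read from the same strand, the table does not show how shared reads were divided.

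*Zrsr1*, a retrogene inside *Commd1* on the opposite strand, was at 1.89 and 1.83 RPKM in undifferentiated WT MSCs and 2.00 and 2.12 RPKM in their KO counterparts, and at 4.24 and 4.02 RPKM and 5.33 and 5.84 RPKM after induction. It was higher in KO after induction (0.43 ± 0.07, adjusted p = 0.0049), and rose in both genotypes (1.11, adjusted p = 3.3e-05, in WT; 1.40, adjusted p = 7.2e-06, in KO). *Commd1*, a copper and NF-kappa-B regulator, moved down, from 66.6 and 71.4 RPKM to 51.0 and 56.6 RPKM in WT and from 59.7 and 61.2 RPKM to 48.2 and 41.3 RPKM in KO (-0.36, adjusted p = 0.012; -0.44, adjusted p = 0.0042). *Trappc9*, a vesicle traffic gene, was at 15.3 and 14.0 RPKM in undifferentiated WT MSCs and 15.9 and 16.1 RPKM in their KO counterparts, and at 19.9 and 19.2 RPKM and 19 and 20.7 RPKM after induction. *Peg13*, a noncoding RNA inside it, was at 4.31 and 4.47 RPKM and 3.78 and 3.80 RPKM before, and 5.11 and 4.57 RPKM and 4.84 and 5.33 RPKM after induction. Neither of them differed by genotype past the threshold. Induction raised *Trappc9* in WT (0.42, adjusted p = 0.0012) and in KO (0.31, adjusted p = 0.0034). *Peg13* rose in KO (0.41, adjusted p = 0.0023), and its change in WT was 0.14 (adjusted p = 0.14). Both genes are read from the same strand, so the values do not show how shared reads were divided.

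*Gnas* was at 504 and 531 RPKM in WT and 546 and 540 RPKM in KO MSCs before induction, and 605 and 613 RPKM in WT and 614 and 596 RPKM in KO MSCs after it. It rose slightly with induction (0.24, adjusted p = 0.0039, in WT; 0.16, adjusted p = 0.018, in KO). The antisense RNA *Nespas*, which overlaps *Gnas* over 11117 nt on the opposite strand, fell at the same time. It was at 0.597 and 0.457 RPKM in WT and 0.456 and 0.483 RPKM in KO MSCs before induction, and 0.167 and 0.161 RPKM in WT and 0.204 and 0.148 RPKM in KO MSCs after it. These are falls of 3.20-fold in WT (log2 change -1.24, adjusted p = 0.0011) and 2.67-fold in KO (-1.05, adjusted p = 0.0016). Neither gene differed by genotype past the threshold, with 95% intervals for *Gnas* of -0.04 to 0.18 before and -0.12 to 0.10 after induction. The low genes *Nap1l5* and *Slc38a4* lay between 0.103 and 0.659 RPKM and did not differ by genotype past the threshold either.

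The comparisons of induction use the same libraries as those of genotype. Induction changed 29 of the 39 imprinted genes in WT MSCs (74.4% against 64.4% of all genes), 15 up and 14 down beside 31.6% and 32.8%, and 31 in KO MSCs (79.5% against 72.9%), 16 up and 15 down beside 36.4% and 36.6%. There were 25 genes called in both genotypes, 64.1% against 56.0% of all genes. Each of them went the same way in both, 12 up and 13 down beside 26.2% and 27.4% of all genes. These counts include *Ascl2*, which passed the minimum only through its differentiating libraries and so had to differ. Without it 28 genes were called in WT, 30 in KO and 24 in both, of which 11 went up. Past the fold limit were 7 genes in WT (17.9% against 14.3%) and 13 in KO (33.3% against 22.9%), or 12 without *Ascl2*. In WT these were *Cdkn1c*, *H19*, *Igf2*, *Kcnq1ot1*, *Slc22a18* and *Zrsr1*, which rose, and *Nespas*, which fell. With a pseudocount of 1 only *Cdkn1c*, *H19*, *Igf2* and *Slc22a18* stayed past it in WT, 4 of the 7. In KO the genes past the limit were *Ascl2*, *Cdkn1c*, *H19*, *Igf2*, *Mest*, *Peg3*, *Slc22a18* and *Zrsr1*, which rose, and *Mirg*, *Nespas*, *Peg10*, *Peg12* and *Rian*, which fell. *Dlk1*, *Meg3*, *Mkrn3* and *Ndn* were called in neither genotype. In WT the calls of *Ascl2*, *Commd1* and *Snrpn* were lost without replicate 1 of differentiating or replicate 2 of undifferentiated WT MSCs (adjusted p 0.054 to 0.07). Those of *Ppp1r9a* and *Slc38a4* were lost without any of the 4 WT libraries (0.051 to 0.15), and that of *Slc38a4* also without either differentiating KO library (0.057). In KO the call of *Airn* was lost without replicate 2 of differentiating or either replicate of undifferentiated KO MSCs (0.083 to 0.16), that of *Gnas* without either undifferentiated KO library (0.072 and 0.089), and that of *Zim1* without replicate 1 of either KO group (0.093 and 0.12). That of *Igf2r* was lost without any of the 4 undifferentiated libraries or replicate 1 of differentiating KO MSCs (0.053 to 0.12), and that of *Impact* without any library but replicate 2 of differentiating KO MSCs (0.055 to 0.15). Median centring ended the calls of *Slc38a4* in WT (0.089) and of *Airn*, *Gnas* and *Impact* in KO (0.078, 0.16 and 0.34). Quantile normalization ended those of *Ascl2*, *Plagl1* and *Slc38a4* in WT (0.073, 0.054 and 0.61) and of *Airn* and *Igf2r* in KO (0.11 and 0.4).

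**Figure D4:**
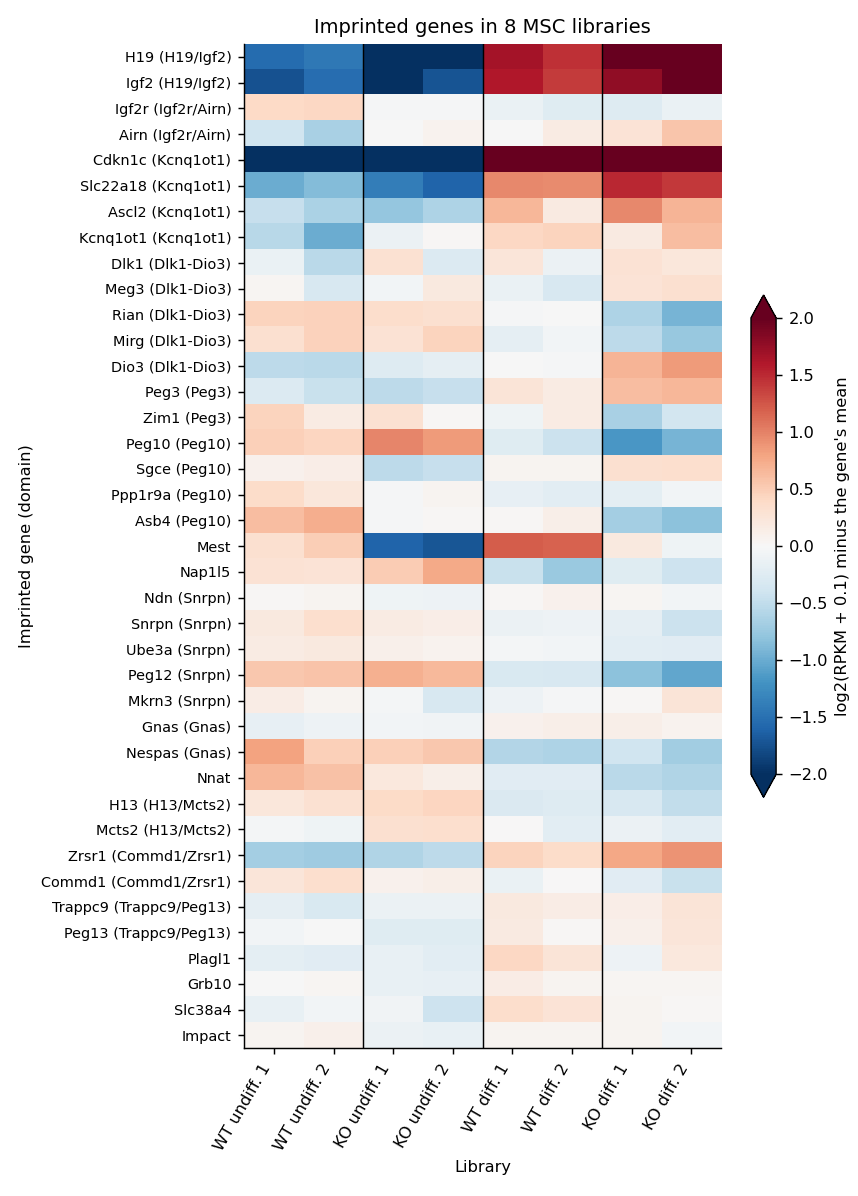
Level of the 39 tested imprinted genes in the 8 libraries as log2(RPKM + 0.1) minus the mean of the gene over the libraries; red is above and blue below the mean, and colours are saturated beyond 2 in either direction. *Cdkn1c*, *H19*, *Igf2* and *Slc22a18* are blue in all 4 undifferentiated and red in all 4 differentiating libraries.

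Whether the genotype difference was the same in both states was asked with the interaction term, which passed in 13 of the 39 imprinted genes, 33.3% against 39.4% of all genes. The difference moved toward higher values in KO for 8 genes, beside 19.4% of all genes (*Cdkn1c*, *Dio3*, *H19*, *Igf2r*, *Mest*, *Peg3*, *Sgce* and *Slc22a18*) and toward lower values for 5, beside 20.0% (*Mcts2*, *Mirg*, *Peg10*, *Peg12* and *Rian*). *H19*, *Slc22a18* and *Peg10* were past the fold limit, as were 6.17% of all genes. With a pseudocount of 1 only *H19* remained past it, 1 of the 3. This comparison is made of the same libraries as those of genotype and of induction, so it is not independent of them. The count of 13 fell to 8 without replicate 1 of undifferentiated KO MSCs. There were 9 imprinted genes with a genotype call in both states, 23.1% against 17.2% of all genes. The direction was the same in 5 (*Asb4*, *Dio3*, *Mest*, *Nnat* and *Ube3a*), beside 7.06% of all genes, and opposite in 4 (*H19*, *Peg10*, *Sgce* and *Slc22a18*), beside 10.1%.

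Genes around the imprinted ones were described from lists chosen with earlier results of these data known, so the shares here are a description. Of 18 factors that keep or erase imprints 17 were tested. In undifferentiated MSCs 3 were higher and 3 lower in KO, and in differentiating MSCs 3 were higher and 4 lower, with *Dnmt3l* itself among the lower ones in both. These are 35.3% and 41.2% of the 17, against 32.2% and 40.7% of all genes. The call of *Dnmt3l* was fixed by the knock-out, so the shares among the other factors are lower than these. *Zfp57*, which protects methylated imprints, was at 4.37 and 3.80 RPKM in WT and 3.81 and 3.77 RPKM in KO MSCs before induction, and 2.89 and 2.67 RPKM in WT and 2.21 and 1.69 RPKM in KO MSCs after it. It was lower in KO after induction (-0.50, adjusted p = 0.028). *Dnmt1*, the maintenance methyltransferase, was higher in KO before (0.51, adjusted p = 0.0014) and lower after induction (-0.48, adjusted p = 0.0014), as was the proliferation sum given above. *Uhrf1*, another factor of the list, was at 10.9 and 11.0 RPKM in undifferentiated WT MSCs and 14.8 and 15.0 RPKM in their KO counterparts. After induction *Uhrf1* was at 4.85 and 5.70 RPKM in WT and 2.33 and 1.29 RPKM in KO MSCs.

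Around *Igf2* and *Igf2r*, 16 further genes of the IGF pathway were tested. In undifferentiated MSCs 3 were higher and 7 lower in KO, and in differentiating MSCs 6 were higher and 3 lower, which makes 62.5% and 56.2% of them against 32.2% and 40.7% of all genes. *Igf1*, the other ligand, was at 1.77 and 1.70 RPKM in undifferentiated WT MSCs and 0.698 and 0.589 RPKM in their KO counterparts (-1.30, adjusted p = 0.00048), and at 7.92 and 7.50 RPKM and 7.21 and 7.65 RPKM after induction (-0.05, adjusted p = 0.65). *Igfbp3*, a binding protein of both ligands, was lower in KO before (-0.77, adjusted p = 0.012) and higher after induction (1.37, adjusted p = 0.0016). Induction raised 9 and lowered 3 of the 16 in WT, and raised 11 and lowered 2 in KO (75.0% and 81.2% called, against 64.4% and 72.9% of all genes). Of 49 other genes with reported imprinting, some only in placenta, 48 were in the table and 32 were tested. In undifferentiated MSCs 7 were higher and 10 lower in KO, and in differentiating MSCs 4 were higher and 7 lower, 53.1% and 34.4% of the 32 against the same 32.2% and 40.7% of all genes. The median log2 change of these 32 genes was -0.01 before and -0.06 after induction, beside -0.00 and -0.01 over all genes tested.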

How the data were processed

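The 8 RNA libraries of mouse MSCs were grouped by the sample labels and matching column names, which left 0 columns without a sample. Per the study's methods and the submitters' processing notes, the authors removed ribosomal RNA, made strand-specific single-end libraries, aligned reads to mm10 with TopHat2 2.1.0, guided by the iGenomes annotation, and obtained the level of each gene with Cuffdiff of Cufflinks 2.2.1. The authors deposited one RPKM value for every gene in every library, without pooling replicates. The library normalization is not given in the sources used here, and an RPKM value carries no error of its own. Depth was estimated from the steps between low values, after subtracting 204 nt from transcript lengths. Of 5266 such values 70.0% came within 0.05 reads of a whole number, which was too few for a count test. Depths and the subtracted length were chosen to make this share large, so it does not check them. A depth fixed beforehand would give 10% by chance. Some abundant genes outside the list were at 0 in a whole group, which can be a failed estimate, and no tested imprinted gene was.

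The 44 symbols were taken from a list of known mouse imprinted genes. These members and the other lists were chosen with earlier results of these data known. Values were tested as log2(RPKM + 0.1) for the 15342 genes whose mean reached 0.1 RPKM, using limma 3.58.1 (R 4.3.3) with a mean for each of 4 groups, a variance trend and Benjamini-Hochberg adjustment over all genes (4 residual and 1.98 prior degrees of freedom). The script was tested on simulated data. KO was compared with WT before and after induction, the states were compared within WT and within KO, and the interaction was tested. Values of every library are given for genes that averaged 1 RPKM or more or went past the fold limit, and ranges for the others. Alternatives covered the pseudocount, the minimum, quantile normalization, median centring, the trend, a replicate block, a fit of the compared libraries alone, and leaving out each library. Positions are from GENCODE M21, sequences from RefSeq (GRCm38.p6), and tables and figures were made in Python 3.11.15 with pandas 2.3.3, numpy 2.4.6 and matplotlib 3.10.9.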

Additional observations from a re-analysis of the deposited data

Results flagged for a closer look

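In 13 imprinted genes the difference between KO and WT MSCs was not the same in differentiating as in undifferentiated cells by the interaction term of limma (adjusted p under 0.05), which 39.4% of all genes also passed. The change of the difference was positive for *H19* (log2 1.41), *Slc22a18* (1.07), *Mest* (0.922), *Sgce* (0.887), *Peg3* (0.566), *Dio3* (0.482), *Igf2r* (0.438) and *Cdkn1c* (0.386). It was negative for *Peg10* (-1.17), *Peg12* (-0.733), *Rian* (-0.638), *Mirg* (-0.504) and *Mcts2* (-0.449). For *H19*, *Slc22a18*, *Sgce* and *Peg10* the genotype difference was called in both states with opposite signs. For *Mest* and *Dio3* it kept its sign. MSC, leukocyte, proliferation, osteoblast and chondrocyte markers also differed between the genotypes in these libraries, and their part in the changes was not tested.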

How the results depend on the processing

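Over the 5 comparisons 104 calls of imprinted genes were tried under 17 alternatives, and none changed direction. Without a library 6 to 19 of them lost the threshold, with quantile normalization 9, with only the libraries compared 8 of 91, and with a pseudocount of 1 none. The number of imprinted genes called, with a library left out, ranged from 6 to 18 (KO against WT, undifferentiated), 11 to 20 (differentiating), 24 to 29 (induction in WT), 27 to 31 (induction in KO) and 8 to 17 (interaction). Past the fold limit the same fits gave 1, 1, 6 to 8, 10 to 14 and 2 to 4 genes. A pseudocount of 1 left 4 genes past the fold limit for induction in WT and 1 for the interaction. Fewer libraries leave fewer degrees of freedom. For the other changes the cause was not tested.

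Between groups, the deviations of libraries with the same replicate number had correlations of -0.0924 to 0.0304. These values cannot tell whether such libraries were paired, since the spread within a group may be technical. With the replicate block 13, 15, 27, 29 and 12 imprinted genes were called in the 5 comparisons, against 15, 16, 29, 31 and 13 without it. Median centring moved the median change of all genes by -0.10 for induction in WT, and members called higher and lower there numbered 14 and 16 in place of 15 and 14. Values near 0.1 RPKM rest on few reads, and 2 libraries per group limit every interval.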
